A study of Mus musculus with 15 samples.

Results

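The effect of an siRNA against Ezh2 was compared with the effect of GSK126, each measured against its own control, as the difference (siEzh2 minus scr) minus (GSK126 minus DMSO) on the log2 scale. The series measured RNA of the mouse melanoma line B16-F10 by sequencing in 15 libraries, and the 12 that form this contrast were chosen by their labelled group. The siEzh2 cells were given an siRNA against Ezh2 and the scr cells a scrambled control siRNA, while the GSK126 cells received the inhibitor at 2 µM and the DMSO cells the vehicle. Each group has 3 libraries. No library carries both an siRNA and a compound, the other 3 libraries (DZNep) are not in the contrast, and neither the duration of treatment nor the siRNA sequence or transfection reagent is given in the sources used here. The count table lists 46078 gene identifiers, of which 14928 passed the filter on low counts and were tested.

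EZH2 is the methyltransferase of Polycomb repressive complex 2 (PRC2), which places methyl groups on lysine 27 of histone H3 and keeps developmental genes silent. An siRNA lowers the transcript and with it the protein, including any role the protein has as a scaffold or outside PRC2, whereas GSK126 competes with the methyl donor in the catalytic site and leaves the protein in place. EZH1, a paralogue with weaker activity, can partly take its place. B16-F10 is an established pigmented line derived from a mouse melanoma and used for work on metastasis.

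The libraries held between 33299524 and 64545747 counts, and mitochondrial genes took between 7.06% and 10.6% of them. Whether the 3 libraries of a group stem from different cultures is not stated in the labels, and the p-values measure the spread among these libraries, which may be technical. By the library numbers in the titles, GSK126 replicate 1 stands next to the siRNA libraries and apart from the other GSK126 and the DMSO libraries; what the numbers stand for is not stated, and apart from that library they cannot be told apart from the arm. Without it, 2645 genes were called in the difference (adjusted p under 0.05), against 3051 with it. The control groups did not coincide: on the first principal component (29.5% of the variance) the scr libraries lay between 25.6 and 30.2, the DMSO libraries between -10.4 and -5.96. The siEzh2 libraries lay between -6.85 and 0.30 and the GSK126 libraries between -18.2 and -17.3 on it. The difference of effects contains the gap between scr and DMSO. The direct comparison of siEzh2 with GSK126 is therefore given beside it for many genes and lists. These comparisons share libraries with the difference and are set side by side only. Where no direct value is given, the gap between the controls is still part of the difference. All 7 pigment cell markers were present, at summed levels of 24290 to 25660 CPM (counts scaled to a common library size by TMM) in siEzh2, 18957 to 19981 in scr, 21491 to 21828 in GSK126 and 25264 to 25630 in DMSO libraries. Of 13 blood and endothelial markers, 6 (Cd3e, Itgam, Adgre1, Tyrobp, Hba-a1 and Cdh5) were at 0 in all 12 libraries, and the list summed to 2.57 to 3.63 CPM in siEzh2, 2.62 to 2.96 in scr, 1.64 to 1.80 in GSK126 and 2.18 to 2.66 in DMSO libraries. The 9 fibroblast markers summed to 196 to 202 CPM in siEzh2, 193 to 196 in scr, 169 to 190 in GSK126 and 190 to 228 in DMSO libraries, nearly all of it Fbln1, with Thy1 at 0 and Col3a1 and Dcn at or near 0.

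The targeted transcript was lowered by the siRNA and not by the inhibitor. Ezh2 (ENSMUSG00000029687, GRCm38 chr6:47530139-47595341, minus strand) had 37.8, 40.1 and 41.6 CPM in siEzh2 cells, against 216, 227 and 215 CPM in scr cells. It had 209, 212 and 222 CPM in GSK126 cells and 204, 209 and 208 CPM in DMSO cells. The siEzh2 libraries stood far below all others, and scr, GSK126 and DMSO libraries lay close together. The siEzh2 effect was -2.46 ± 0.053 (SE, adjusted p = 2.05e-15), the GSK126 effect was 0.052 ± 0.049 (SE, adjusted p = 0.533), and their difference was -2.51 ± 0.072 (SE, adjusted p = 2.48e-13) on the log2 scale, a 5.7-fold lower level (edgeR's quasi-likelihood test, Benjamini-Hochberg adjusted over all genes tested, as for every adjusted p given here). The paralogue Ezh1 had 41.1, 46.2 and 47.7 CPM in siEzh2 and 48.2, 42.0 and 42.2 CPM in scr libraries. It had 35.0, 38.5 and 39.9 CPM in GSK126 and 41.8, 39.9 and 44.1 CPM in DMSO libraries, with overlapping ranges in both arms, and its difference of effects was 0.18 ± 0.10 (SE, adjusted p = 0.232), with a 95% interval of -0.032 to 0.40.

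Across all genes, 3051 (20.4% of those tested) had a difference of effects at an adjusted p under 0.05; such genes are referred to as called. Of these, 1528 (10.2%) had the higher effect with siEzh2 and 1523 (10.2%) the lower, and at least 2-fold differences were seen for 156 (1.05%) higher and 310 (2.08%) lower. This even split depended on the scaling: with library totals in place of TMM, 1180 genes were higher and 1843 lower, with a median shift of -0.04 on the log2 scale. In the arms themselves, siEzh2 against scr gave 3906 calls (26.2%), with 2093 higher (14%) and 1813 lower (12.1%), a balance that turned with library totals, at 1617 higher and 2229 lower. GSK126 against DMSO gave 1800 calls (12.1%), with 1078 higher (7.22%) and 722 lower (4.84%). The arms share no library, and 780 genes were called in both, 20% of the siEzh2 calls and 43.3% of the GSK126 calls. Of these 780 genes, 360 had the same direction (268 higher and 92 lower in both arms) and 420 had opposite directions. Among the opposite ones, 228 were higher with siEzh2 and lower with GSK126, and 192 were lower with siEzh2 and higher with GSK126; all 420 were also called in the difference, as 2 effects of opposite sign add up in it. Called in the siEzh2 arm alone and in the difference were 1700 genes, called in the GSK126 arm alone and in the difference were 559, and 310 were called in the difference with neither arm called. Without GSK126 replicate 3 the opposite genes numbered 262 and without GSK126 replicate 2 they numbered 279, and the same-direction genes numbered 238 and 237; GSK126 calls numbered 1151, 1087 and 1088 without GSK126 replicate 1, 2 and 3.

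**Figure D1:**
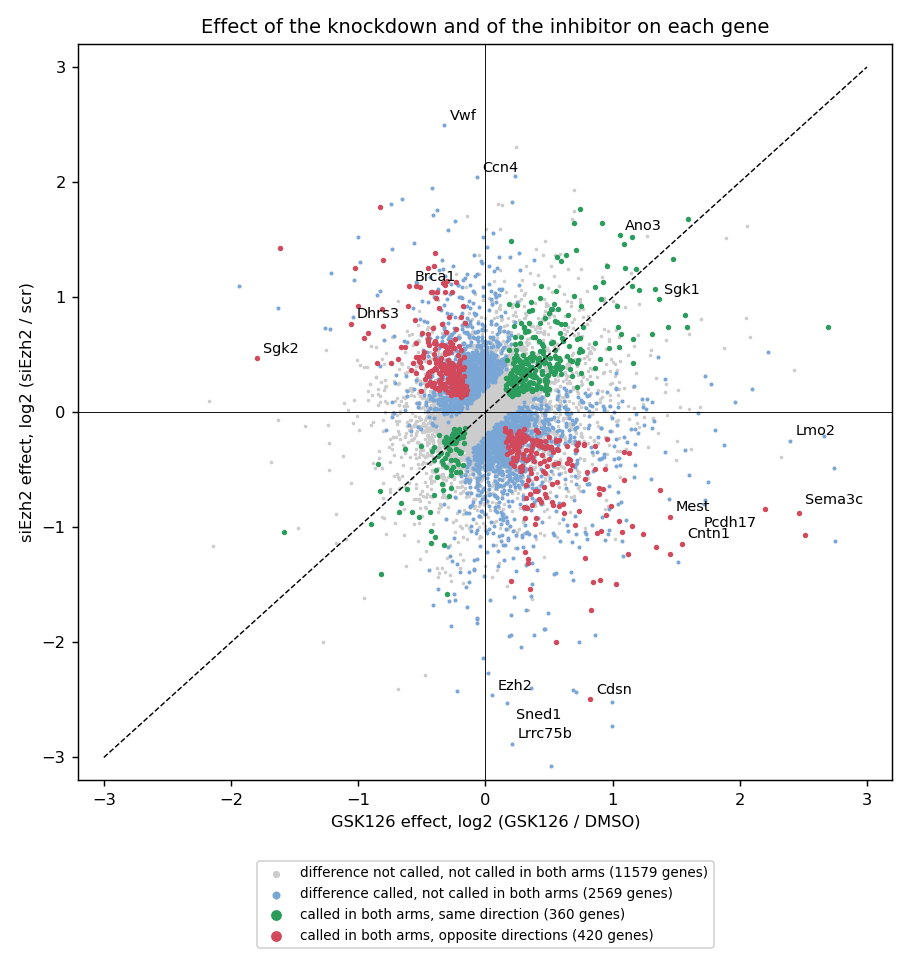
Each point is one tested gene, with its GSK126 effect (log2 of GSK126 over DMSO) on the horizontal and its siEzh2 effect (log2 of siEzh2 over scr) on the vertical axis; the dashed line marks equal effects and 6 genes lie outside the axes. The 360 genes called in both arms in the same direction lie in the upper right and lower left, the 420 with opposite directions in the other quadrants, and Sema3c, Pcdh17 and Cntn1 lie far to the lower right.

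Among the 10 most negative differences were Sema3c, Pcdh17 and Cntn1, which were lower with siEzh2 and higher with GSK126. Sema3c (chr5:17574281-17730268) encodes a secreted semaphorin that guides axons and migrating neural crest cells. It had 6.91, 7.39 and 7.03 CPM in siEzh2 libraries, against 12.3, 15.3 and 11.7 CPM in scr libraries. In GSK126 libraries it had 34.2, 30.8 and 34.6 CPM, against 6.58, 5.89 and 5.6 CPM in DMSO libraries. All siEzh2 libraries were below all scr libraries and all GSK126 libraries were far above all DMSO libraries, with no overlap. The siEzh2 effect was -0.88 ± 0.099 (SE, adjusted p = 3.88e-06), the GSK126 effect 2.47 ± 0.096 (SE, adjusted p = 1.59e-11) and the difference -3.35 ± 0.14 (SE, adjusted p = 2.47e-11), or 10.2-fold. Pcdh17 (chr14:84443563-84539002), a protocadherin of neuronal contacts, had 8.63, 8.25 and 8.0 CPM with siEzh2 and 15.2, 14.9 and 14.3 CPM with scr. Its levels were 35.3, 31.7 and 34.5 CPM with GSK126 and 7.82, 7.78 and 6.63 CPM with DMSO. The pattern was that of Sema3c, low in siEzh2 and DMSO and high in GSK126 libraries, and the difference was -3.04 ± 0.11 (SE, adjusted p = 3.03e-12). Cntn1 (chr15:92051165-92341967), a contactin that links neuronal membranes, had 23.8, 23.9 and 22.1 CPM with siEzh2 and 49.3, 52.3 and 52.5 CPM with scr. With GSK126 it reached 95.2, 91.2 and 92.0 CPM, against 34, 32.7 and 29.1 CPM with DMSO. Neither pair of groups overlapped, and the difference was -2.69 ± 0.086 (SE, adjusted p = 8.23e-13). For these genes the scr libraries also stood above the DMSO libraries, by 1.12, 1.01 and 0.69 on the log2 scale for Sema3c, Pcdh17 and Cntn1. In the direct comparison siEzh2 stayed below GSK126, by -2.22 ± 0.096 (SE, adjusted p = 5.95e-11) for Sema3c, -2.03 ± 0.075 (SE, adjusted p = 7.13e-12) for Pcdh17 and -2.0 ± 0.062 (SE, adjusted p = 4.83e-13) for Cntn1. Of the 26 tested members of the list of nonclustered protocadherins, contactins and semaphorins, 8 had a called lower difference and 1, Sema3b, a higher one, with a median of -0.16 against 0.001 over all genes tested.

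CG-rich promoters are where PRC2 is known to be recruited in mammals. The Sema3c promoter carries 42 CG dinucleotides in 300 bases, against a median of 21 over the 10286 tested genes matched to a promoter. The 96 matched genes raised at least 2-fold by GSK126 had a median of 12, so the count of Sema3c is not typical of them. The Sema3c promoter is shown as a single case. It spans chr5:17574566-17574865 on the plus strand of GRCm38.p6, from 250 bases before to 50 bases after the transcription start in RefSeq. The gene start given above, 17574281, is that of GENCODE, so the whole stretch lies inside the gene as annotated there. Each CG is in capitals.
Sema3c: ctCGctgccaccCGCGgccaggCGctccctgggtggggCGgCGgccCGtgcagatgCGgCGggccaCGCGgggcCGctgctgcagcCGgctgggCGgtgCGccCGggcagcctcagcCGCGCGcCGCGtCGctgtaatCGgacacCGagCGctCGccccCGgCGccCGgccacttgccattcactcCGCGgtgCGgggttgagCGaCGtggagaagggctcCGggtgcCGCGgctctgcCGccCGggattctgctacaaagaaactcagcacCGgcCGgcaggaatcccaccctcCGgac

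Other genes were raised by GSK126 while the siRNA left them lower or little changed, and here the controls lay together. Mest (chr6:30723547-30748465), an imprinted gene of the mesoderm, had 10.2, 9.12 and 8.9 CPM in siEzh2 and 15, 18.5 and 19.4 CPM in scr libraries. It had 46.0, 45.4 and 48.0 CPM in GSK126 and 15.5, 18.5 and 16.9 CPM in DMSO libraries. GSK126 libraries were above and siEzh2 libraries below both controls without overlap, with a difference of -2.36 ± 0.13 (SE, adjusted p = 1.06e-09) and a direct comparison of -2.31 ± 0.092 (SE, adjusted p = 2.7e-11); 23.1% of its exonic length overlaps Copg2 on the opposite strand, and the labels give no strand setting for the counting. Lmo2 (chr2:103957986-103981878), a transcriptional adaptor of blood and vessel formation, had 1.08, 0.942 and 1.04 CPM with siEzh2 and 1.22, 1.08 and 1.34 CPM with scr. It had 5.97, 6.01 and 5.32 CPM with GSK126 and 0.981, 1.03 and 1.23 CPM with DMSO. All groups but GSK126 lay close to 1 CPM, the siEzh2 effect of -0.25 ± 0.16 (SE, adjusted p = 0.306) was not called, and the difference was -2.64 ± 0.21 (SE, adjusted p = 9.81e-08).

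A further set of negative differences lay mainly in the siRNA arm, where scr stood above the 3 other groups. Cdsn, corneodesmosin of the skin barrier, had 4.73, 4.99 and 5.39 CPM in siEzh2, against 27.0, 30.4 and 28.0 CPM in scr libraries. It had 7.64, 7.75 and 11.8 CPM in GSK126 and 5.55, 4.78 and 5.02 CPM in DMSO libraries. The scr libraries were the highest by far, the siEzh2 and DMSO ranges overlapped, and the difference of -3.32 ± 0.19 (SE, adjusted p = 1.73e-08) stood beside -0.84 ± 0.14 (SE, adjusted p = 0.0007) in the direct comparison. Sned1, an extracellular matrix protein, had 14.9, 13.4 and 18.3 CPM in siEzh2 and 94.6, 83.9 and 91.1 CPM in scr libraries. Its GSK126 libraries had 19.4, 17.8 and 17.4 CPM and its DMSO libraries 19.7, 16.3 and 12.9 CPM. The siEzh2, GSK126 and DMSO ranges all overlapped, and the difference of -2.69 ± 0.20 (SE, adjusted p = 1.81e-06) stood beside a direct value of -0.22 ± 0.14 (SE, adjusted p = 0.32); 19.6% of its exonic length overlaps other genes, Mterf4 on the opposite strand among them. Lrrc75b had 1.69, 1.76 and 2.01 CPM with siEzh2 and 12.3, 13.6 and 14.7 CPM with scr, with 4.14, 4.97 and 4.24 CPM in GSK126 and 3.78, 4.15 and 3.66 CPM in DMSO libraries. Here siEzh2 lay below every other library, with a difference of -3.09 ± 0.16 (SE, adjusted p = 4.8e-10) and a direct value of -1.29 ± 0.13 (SE, adjusted p = 1.48e-06).

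The largest positive differences held genes raised by the knockdown, lowered by the inhibitor, or both. Vwf, the von Willebrand factor of endothelium and platelets, had 10.9, 11.9 and 12.2 CPM in siEzh2, against 2.2, 2.31 and 1.64 CPM in scr libraries. It had 4.65, 4.44 and 5.19 CPM in GSK126 and 7.39, 5.17 and 5.42 CPM in DMSO libraries. The siEzh2 libraries were the highest and scr the lowest, while GSK126 and DMSO overlapped slightly, and the difference was 2.82 ± 0.19 (SE, adjusted p = 2.14e-08), or 7.06-fold. The direct value of Vwf was 1.295, beside scr over DMSO of -1.524. Ccn4, a matricellular target of WNT signalling, had 76.4, 72.5 and 76.0 CPM in siEzh2 and 18.7, 18.3 and 17.4 CPM in scr libraries. It had 32.1, 31.3 and 32.6 CPM with GSK126 and 35.4, 33.9 and 31.5 CPM with DMSO. The siEzh2 libraries exceeded all 9 others, GSK126 and DMSO overlapped, and the difference was 2.11 ± 0.080 (SE, adjusted p = 7.35e-12), beside 1.23 ± 0.055 (SE, adjusted p = 9.98e-11) in the direct comparison.

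For Sgk2, a kinase related to the corticosteroid-induced SGK1, the inhibitor arm contributed most. It had 5.65, 4.92 and 5.25 CPM in siEzh2 and 3.94, 3.6 and 3.88 CPM in scr libraries. It had 1.72, 1.55 and 1.44 CPM in GSK126, against 5.14, 4.8 and 6.25 CPM in DMSO libraries. GSK126 libraries lay below all others, and the difference was 2.26 ± 0.17 (SE, adjusted p = 6.07e-08). Dhrs3, a reductase of the retinoid pathway, had 12.3, 10.8 and 12.8 CPM with siEzh2 and 7.03, 6.88 and 7.17 CPM with scr. It had 4.92, 5.37 and 4.8 CPM with GSK126 and 10.1, 9.86 and 11.3 CPM with DMSO. The arms moved in opposite directions without overlap, by 0.77 and -1.05, and the difference was 1.82 ± 0.12 (SE, adjusted p = 1.73e-08). Brca1, a factor of homologous recombination repair, had 405, 360 and 378 CPM in siEzh2 and 181, 183 and 172 CPM in scr libraries. It had 198, 186 and 185 CPM in GSK126 and 300, 268 and 294 CPM in DMSO libraries. It rose with siEzh2 and fell with GSK126 without overlap, the GSK126 and scr groups lay next to each other, and the difference was 1.69 ± 0.082 (SE, adjusted p = 2.93e-10). In the direct comparison Sgk2, Dhrs3 and Brca1 had 1.747, 1.249 and 1.005, beside scr over DMSO of -0.514, -0.575 and -0.686. Krt80, an epithelial keratin, had a difference of 1.62 ± 0.20 (SE, adjusted p = 1.46e-05), with 1.83 in the siEzh2 arm and 0.21 in the GSK126 arm, where it was not called (adjusted p = 0.378). Nxph4, a neurexophilin, Hs3st1, a heparan sulfate sulfotransferase, and Ripor2 had differences of 1.78, 1.68 and 1.64, and each was called higher in the siEzh2 arm and lower in the GSK126 arm. For Hs3st1 and Ripor2 the direct values were 0.40 and 0.46 on the log2 scale, and scr over DMSO was -1.28 and -1.18.

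**Figure D2:**
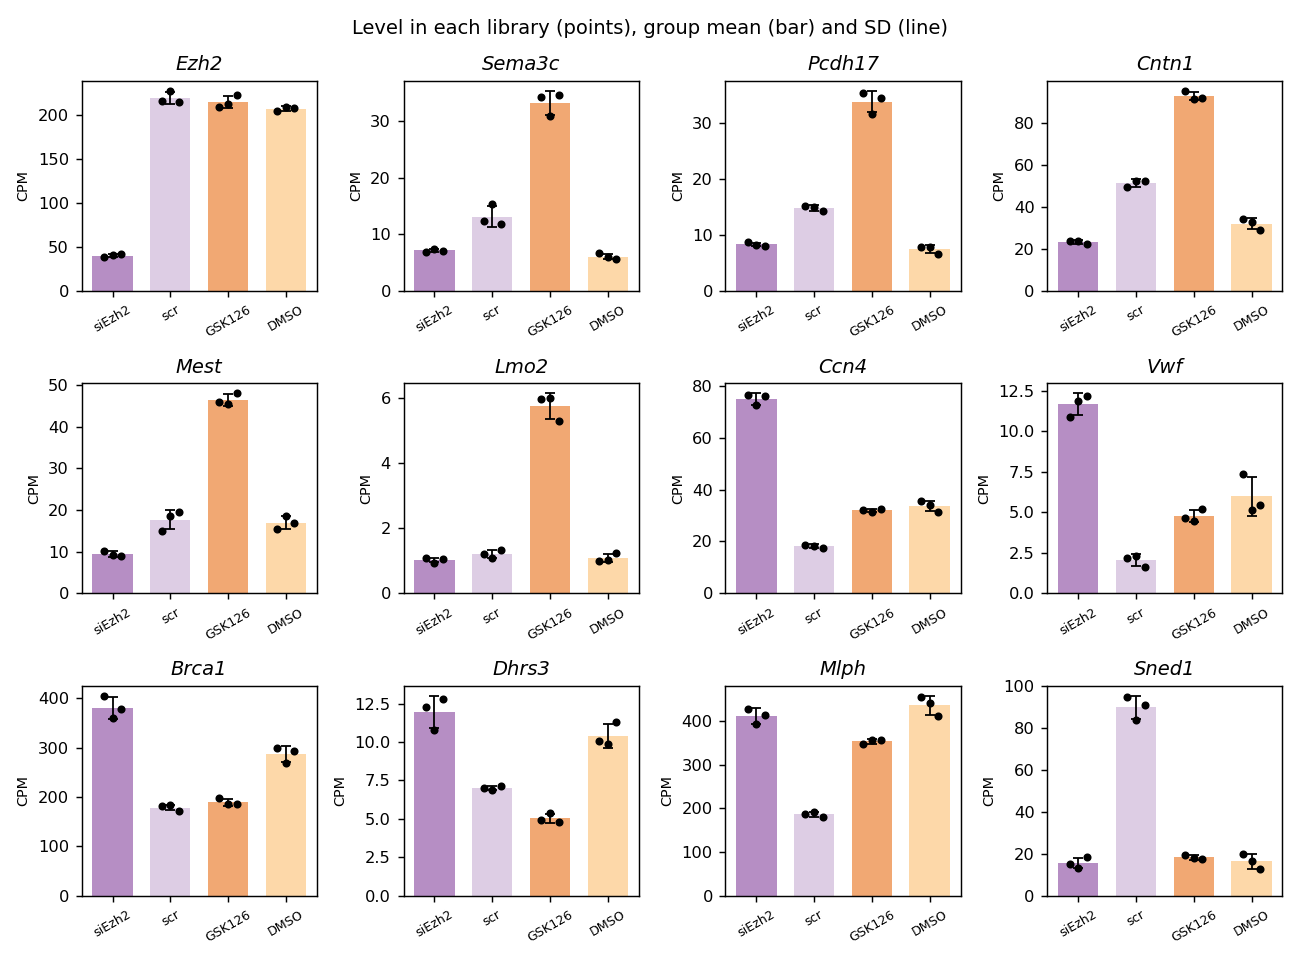
Levels in CPM (vertical axes, linear from 0) of 12 genes in the 3 libraries of each group, as points, with bars for the group mean and lines for the SD. Ezh2 is low in siEzh2 alone, Sema3c, Pcdh17, Cntn1, Mest and Lmo2 are highest in GSK126, Ccn4, Vwf and Brca1 are highest in siEzh2, and Sned1 is high in scr alone.

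How far each of these rested on the controls varied from gene to gene. Of the 10 largest differences in each direction, Ezh2, Mest and Lmo2 had scr and DMSO within 0.14 on the log2 scale of each other, none of these gaps called. Cdsn and Sned1 had gaps of 2.48 and 2.47, both called. Over all genes, scr against DMSO gave 3853 calls (25.8%), 1818 higher (12.2%) and 2035 lower (13.6%), or 2197 higher and 1549 lower with library totals, and siEzh2 directly against GSK126 gave 3028 calls (20.3%), 1397 higher (9.36%) and 1631 lower (10.9%). The contrast holds no untreated library, so what each control treatment itself changed cannot be told apart.

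**Figure D3:**
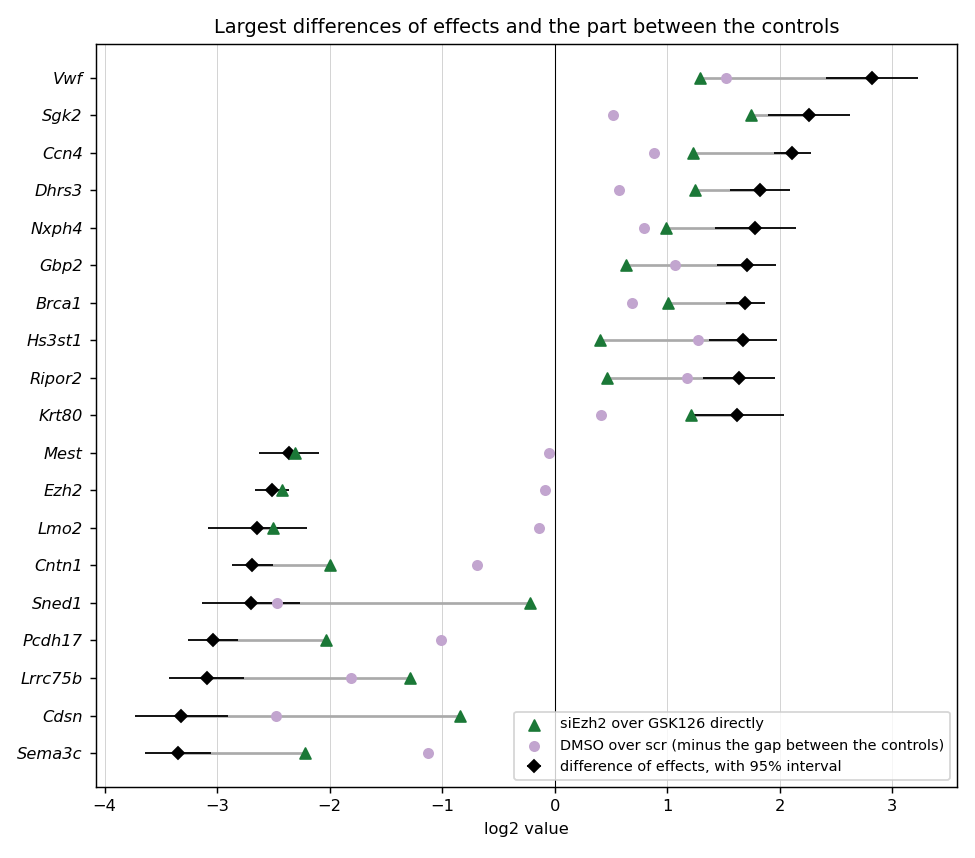
Genes among the 10 largest differences in each direction, with the difference of effects (diamonds, with 95% interval), the direct log2 ratio of siEzh2 over GSK126 (triangles) and the log2 ratio of DMSO over scr (circles) on the horizontal axis. The diamond is the sum of the other values, so that for Sned1 nearly all of it lies between the controls, and for Ezh2, Mest and Lmo2 nearly none.

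Most tested genes of the pigment cell were higher in the difference. Melanocytes and pigmented melanomas make melanin in melanosomes, organelles related to lysosomes, under the transcription factor MITF. Of 38 tested members of the pigmentation and melanocyte list, 25 had a called higher difference and none a lower one, with a median of 0.52. In the siEzh2 arm 23 members were called higher and none lower; in the GSK126 arm none were called higher and 18 lower. Directly, siEzh2 exceeded GSK126 in 25 members and was below it in 2 (Slc24a5 and Kit), and scr against DMSO had 1 member higher (Tyr) and 24 lower. The counts of 0 here were also 0 by DESeq2 and by limma, and at an unadjusted p under 0.05 edgeR had 1 member lower in the difference and none of that direction in either arm. Mlph (chr1:90915085-90951142), melanophilin, which ties melanosomes to myosin, had 428, 393 and 413 CPM in siEzh2 and 187, 192 and 180 CPM in scr libraries. It had 347, 356 and 356 CPM in GSK126 and 454, 441 and 412 CPM in DMSO libraries. The siEzh2 libraries were 2.21-fold above scr and the GSK126 libraries lay just below DMSO, neither pair overlapping, with a difference of 1.45 ± 0.074 (SE, adjusted p = 4.8e-10) beside a direct value of 0.22 ± 0.052 (SE, adjusted p = 0.00581). Oca2, a melanosome transporter that sets its pH, had 39.6, 42.9 and 42.7 CPM in siEzh2 and 23, 19 and 18.6 CPM in scr libraries. It had 24.3, 22.9 and 22.5 CPM in GSK126 and 27.3, 28.1 and 28.3 CPM in DMSO libraries. The siEzh2 libraries stood above all others, and the difference was 1.31 ± 0.10 (SE, adjusted p = 7.16e-08). Mitf, Tyrp1 and Pmel were chosen after their values were seen, as the regulator, a melanin enzyme and the fibril protein of the melanosome. Their differences were 0.64, 0.62 and 0.88, with siEzh2 effects of 0.49, 0.42 and 0.34 and GSK126 effects of -0.14 (not called), -0.20 and -0.54. For Pmel the group means were 4014 CPM in siEzh2, 3176 in scr, 3129 in GSK126 and 4563 in DMSO libraries. The siEzh2 mean lay above scr and below DMSO, and the GSK126 mean lay next to that of scr. Tyr, another pigment cell marker, had 99.7, 103 and 99.4 CPM in siEzh2 and 86.5, 91.0 and 86.2 CPM in scr libraries. Its GSK126 libraries, at 77.7, 73.5 and 71.6 CPM, overlapped its DMSO libraries, at 79.6, 67.5 and 66.2 CPM.

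**Figure D4:**
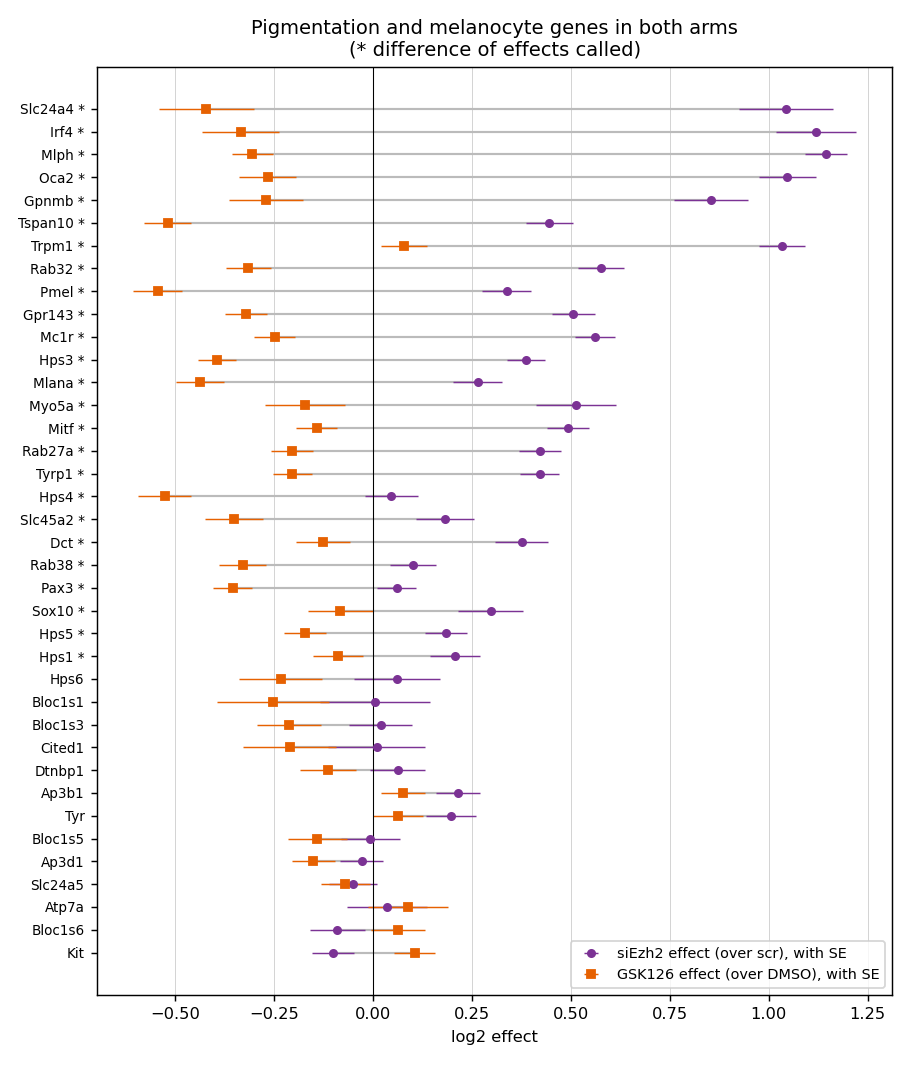
The 38 tested pigmentation and melanocyte genes, ordered by their difference of effects, with the siEzh2 effect (circles) and the GSK126 effect (squares) on a log2 axis and lines for the SE; asterisks mark the 25 genes with a called difference. For the called genes the circle lies right of 0 and, with the exception of Trpm1, the square left of it.

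Acidification and lysosome genes went the same way. The vacuolar ATPase pumps protons into lysosomes and melanosomes, and of its 19 tested subunits 14 had a called higher difference and none a lower one (median 0.34). In the siEzh2 arm 7 subunits were higher and none lower, in the GSK126 arm none higher and 11 lower, and directly siEzh2 exceeded GSK126 in 13 with none lower; the counts of 0 were 0 by DESeq2, by limma and at an unadjusted p under 0.05 as well. Between the controls, scr against DMSO had 6 subunits lower and none higher. Atp6v1b2 of the catalytic sector had 259, 266 and 255 CPM in siEzh2 and 205, 205 and 200 CPM in scr libraries. It had 220, 208 and 211 CPM in GSK126 and 245, 252 and 279 CPM in DMSO libraries. The siEzh2 and DMSO groups lay high and the scr and GSK126 groups low, with a difference of 0.63 ± 0.075 (SE, adjusted p = 1.02e-05). Of 40 lysosome genes, 20 were called higher and none lower in the difference (median 0.29), 20 higher and 1 lower (Glb1) with siEzh2, and none higher and 10 lower with GSK126; directly, 20 were higher and 2 lower (Ctsf and Glb1). Between the controls, scr against DMSO had 14 lysosome genes lower and none higher. DESeq2 and limma also had 0 where edgeR had, and at an unadjusted p under 0.05 edgeR had 1 lower in the difference and 1 higher with GSK126. Hexa, a hydrolase of gangliosides, had a difference of 0.61 ± 0.072 (SE, adjusted p = 9.64e-06).

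A minority of the promoters of these genes hold short sequences to which MITF and related factors are known to bind. The M-box letters TCATGTG, searched on both strands, were present in 8 of 30 promoters of the pigment list (26.7%), against 2.04% of all tested genes with a promoter. They were in 4 of 31 promoters of the lysosome list (12.9%) and 0 of 14 of the vacuolar ATPase list. The E-box CACGTG was in 8 of 30 promoters of the pigment list (26.7%), 4 of 14 of the vacuolar ATPase list (28.6%) and 11 of 31 of the lysosome list (35.5%), against 10.2% of all. These motifs do not share a position, and a match is a description of the letters. The promoters of Mlph (chr1:90914850-90915149, plus strand) and Tyrp1 (chr4:80833963-80834262, plus strand) are shown as those of the pigment gene with the largest difference among the named ones and of a classical melanin enzyme, from RefSeq on GRCm38.p6, with the E-box of Mlph and the M-box of Tyrp1 in capitals.
Mlph: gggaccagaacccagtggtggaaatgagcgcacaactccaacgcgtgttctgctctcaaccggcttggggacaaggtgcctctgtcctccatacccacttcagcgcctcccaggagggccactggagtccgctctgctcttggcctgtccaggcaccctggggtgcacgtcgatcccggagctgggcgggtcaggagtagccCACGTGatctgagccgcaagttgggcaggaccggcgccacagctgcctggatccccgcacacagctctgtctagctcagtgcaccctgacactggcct
Tyrp1: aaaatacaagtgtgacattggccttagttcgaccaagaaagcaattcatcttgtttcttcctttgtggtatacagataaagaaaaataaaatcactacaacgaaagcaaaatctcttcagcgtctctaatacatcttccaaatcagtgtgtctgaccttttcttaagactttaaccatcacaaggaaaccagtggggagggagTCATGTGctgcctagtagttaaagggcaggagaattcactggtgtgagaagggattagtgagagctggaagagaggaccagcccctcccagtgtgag

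Interferon-stimulated genes, the antiviral programme that type I interferon and double-stranded RNA can start, were higher in the difference in 29 of 51 tested members and lower in 1, Cmpk2, with a median of 0.52. The siEzh2 arm had 33 higher and 1 lower (Helz2), and the GSK126 arm had 1 higher (Cmpk2, 0.67) and 8 lower. In the direct comparison 11 were higher and 5 lower (Rsad2, Cmpk2, Ddx58, Iigp1 and Cxcl10), and scr against DMSO had none higher and 35 lower, with none higher by DESeq2, by limma or at an unadjusted p under 0.05 either. Gbp2 (chr3:142620602-142638008), a guanylate-binding protein of cell-autonomous defence, had 14.2, 13.9 and 13.9 CPM in siEzh2 and 5.78, 6.52 and 5.29 CPM in scr libraries. It had 9.74, 8.79 and 8.56 CPM in GSK126 and 13.3, 12.4 and 11.3 CPM in DMSO libraries. The scr libraries were the lowest, siEzh2 lay above all DMSO libraries and GSK126 below them, and the difference was 1.70 ± 0.12 (SE, adjusted p = 3.59e-08), beside 0.64 ± 0.087 (SE, adjusted p = 5.17e-05) directly. Ifit3, which binds to viral RNA complexes, had 11.6, 10.9 and 12.2 CPM in siEzh2 and 8.1, 7.34 and 7.32 CPM in scr libraries. It had 8.55, 8.28 and 9.12 CPM in GSK126 and 11.1, 11.4 and 13 CPM in DMSO libraries. Its siEzh2 and DMSO libraries overlapped and stood above the other groups, and its difference was 1.06 ± 0.12 (SE, adjusted p = 5.21e-06).

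Sensors of double-stranded RNA and the RNA interference machinery had 7 of 24 members called higher, against 10.2% of all genes, and 1, the exportin Xpo5, lower. Directly 1 (Ifih1) was higher and 3 (Ddx58, Ago4 and Xpo5) lower, and scr against DMSO had 10 lower and none higher (none by DESeq2 or limma, 1 at an unadjusted p under 0.05). Ifih1, the sensor MDA5, had a difference of 0.78 ± 0.089 (SE, adjusted p = 7.47e-06) and Traf3, an adaptor of the pathway, of 0.35 ± 0.075 (SE, adjusted p = 0.00228). MHC class I genes had 7 of 20 members higher (4 without scr replicate 2) and none lower by edgeR, DESeq2 or limma, with 1 lower at an unadjusted p under 0.05. The siEzh2 arm had 8 higher, and the GSK126 arm had 1 higher (Nlrc5) and 2 lower (Tapbp and Calr). Directly none was higher and 4 were lower (H2-Q4, B2m, Psmb8 and Nlrc5). Between the controls, scr against DMSO had 13 of the MHC class I genes lower and none higher, with none higher by DESeq2, by limma or at an unadjusted p under 0.05. Tapbp and Calr, chaperones that load peptides on class I molecules, had differences of 0.76 ± 0.11 (SE, adjusted p = 9.35e-05) and 0.52 ± 0.095 (SE, adjusted p = 0.000655), and directly both were close to 0, at -0.026 and -0.035, neither called.

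The letters GAAA, followed after any pair of bases by GAAA on either strand, the core of the interferon-stimulated response element, were in 18 of 37 promoters of the interferon list (48.6%), against 2.90% of all tested genes with a promoter. The Gbp2 promoter (chr3:142620413-142620712, plus strand, GRCm38.p6, RefSeq) is shown as the interferon gene with the largest difference; its element lies on the opposite strand, so that its reverse complement stands in capitals.
Gbp2: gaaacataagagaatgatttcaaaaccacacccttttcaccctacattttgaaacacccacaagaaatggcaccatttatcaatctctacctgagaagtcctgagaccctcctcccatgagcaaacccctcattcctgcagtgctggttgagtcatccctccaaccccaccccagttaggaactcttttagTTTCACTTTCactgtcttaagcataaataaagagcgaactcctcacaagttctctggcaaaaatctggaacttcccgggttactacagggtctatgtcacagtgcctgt

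Genes of cholesterol synthesis were higher with the knockdown and had few calls with the inhibitor. Of 26 cholesterol synthesis genes, 16 were higher in the difference and 1, Srebf1, lower (median 0.34); 21 were higher and none lower with siEzh2, and 2 (Srebf1 and Stard4) higher and none lower with GSK126. The direct comparison had none higher and 14 lower, and scr against DMSO none higher and 23 lower, so that the direction in the difference was not that of the direct comparison. DESeq2 and limma had 0 where edgeR had, and at an unadjusted p under 0.05 edgeR had 3 lower with GSK126 and 1 higher in scr against DMSO. Msmo1, a sterol oxidase, had 243, 232 and 215 CPM in siEzh2 and 161, 160 and 166 CPM in scr libraries. It had 245, 251 and 238 CPM in GSK126 and 251, 273 and 287 CPM in DMSO libraries. The scr libraries were the lowest without overlap, and the siEzh2 and GSK126 ranges overlapped. The gene had a difference of 0.65 ± 0.082 (SE, adjusted p = 2.07e-05) and a direct value of -0.091 ± 0.058 (SE, adjusted p = 0.295). The sterol element letters TCACNCCAC, on either strand, were in 1 of 18 promoters of this list (5.56%), against 1.11% of all tested genes with a promoter.

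ATF4 targets, which serve amino acid supply under stress, ran the opposite way. Of 37 tested, 23 were lower in the difference and 1, Eif4ebp1, higher, with a median of -0.37; siEzh2 had 21 lower and 1 higher (Eif4ebp1), and GSK126 none lower (1 at an unadjusted p under 0.05, none by DESeq2 or limma) and 11 higher. Directly, 7 were lower and 4 higher (Ddit3, Nupr1, Ppp1r15a and Aars), and scr against DMSO had 23 higher and 2 lower (Gpt2 and Eif4ebp1). Trib3, a pseudokinase induced by ATF4, had 86.9, 104 and 97.5 CPM in siEzh2 and 180, 175 and 155 CPM in scr libraries. It had 99.4, 98.4 and 104 CPM in GSK126 and 91.8, 70.5 and 82.7 CPM in DMSO libraries. The scr libraries stood above all others and the siEzh2 and GSK126 ranges overlapped, with a difference of -1.12 ± 0.12 (SE, adjusted p = 1.35e-05) and a direct value of -0.065 ± 0.088 (SE, adjusted p = 0.651). Pck2, the mitochondrial phosphoenolpyruvate carboxykinase, had a difference of -0.48 ± 0.075 (SE, adjusted p = 0.000164). In the unfolded protein response of the endoplasmic reticulum, 11 of 26 members were higher and 2, Herpud1 and Ero1l, lower. With siEzh2 8 were higher and 2 (Herpud1 and Derl1) lower, and with GSK126 1 (Ero1l) was higher and 7 lower. The direct comparison had 4 higher (Pdia4, Sel1l, Atf6 and Ero1l) and 2 lower (Herpud1 and Ero1lb), and scr against DMSO 2 higher (Sel1l and Ero1l) and 13 lower. Dnajc3, a co-chaperone of the response, had a difference of 0.43 ± 0.091 (SE, adjusted p = 0.00224) and a direct value of 0.097, not called.

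The letters TGATGNAA, searched on both strands and shared by amino acid response elements, were in 10 of 30 promoters of the ATF4 list (33.3%), against 2.14% of all tested genes with a promoter. The Trib3 promoter (chr2:152344011-152344310, minus strand, GRCm38.p6, RefSeq) is shown as the ATF4 target with the smallest p of the difference; the element reads in the opposite orientation, and its reverse complement is in capitals.
Trib3: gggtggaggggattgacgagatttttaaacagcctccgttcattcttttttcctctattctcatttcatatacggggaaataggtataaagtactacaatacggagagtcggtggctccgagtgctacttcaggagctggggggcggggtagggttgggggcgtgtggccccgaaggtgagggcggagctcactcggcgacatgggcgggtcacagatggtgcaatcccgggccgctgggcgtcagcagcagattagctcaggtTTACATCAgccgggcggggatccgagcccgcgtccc

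**Figure D5:**
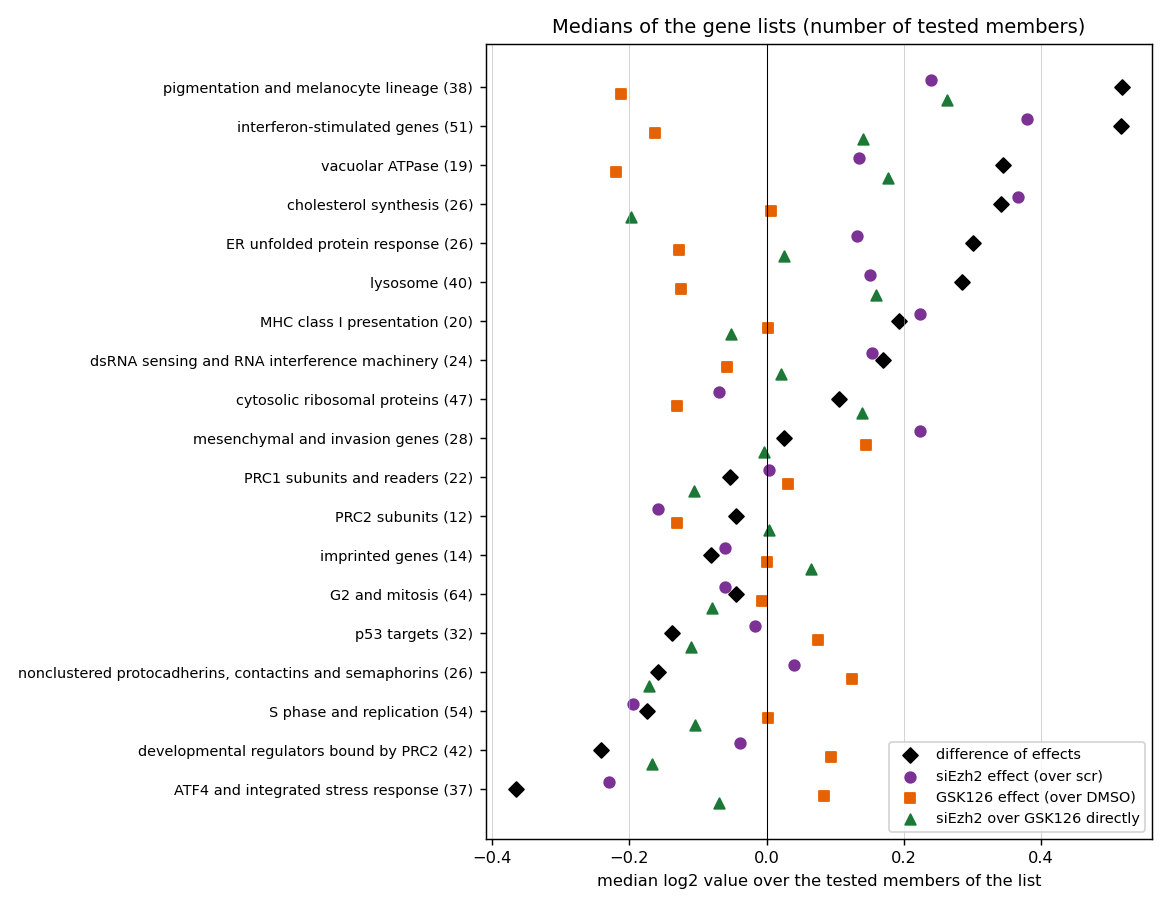
Median log2 value over the tested members of 19 gene lists (number of members in brackets) for the difference of effects (diamonds), the siEzh2 effect (circles), the GSK126 effect (squares) and siEzh2 directly over GSK126 (triangles). For pigmentation, vacuolar ATPase and lysosome genes the effects lie on opposite sides of 0 and the triangle on the side of the diamond; for cholesterol synthesis the triangle lies on the other side.

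Of 54 genes of DNA replication, 28 were lower with the knockdown and none was called with the inhibitor. Of 54 S phase genes, 18 were lower and none higher in the difference (median -0.17); 28 were lower and none higher with siEzh2, and none were called either way with GSK126 by edgeR, DESeq2 or limma. At an unadjusted p under 0.05, edgeR had 1 higher in the difference, and 2 higher and 5 lower with GSK126. Directly 9 were lower and 1 (Dscc1) higher, and scr against DMSO had 16 higher and none lower (1 by DESeq2, none by limma, 3 at an unadjusted p under 0.05). Cdc45, a part of the active replicative helicase, had 37.3, 36.2 and 38.0 CPM in siEzh2 and 54.8, 56.2 and 52.3 CPM in scr libraries. It had 42.3, 45.1 and 46.4 CPM in GSK126 and 42.3, 42.4 and 42.3 CPM in DMSO libraries. The siEzh2 libraries were below and the scr libraries above all others, and the difference was -0.62 ± 0.073 (SE, adjusted p = 8.78e-06), with a direct value of -0.26 ± 0.052 (SE, adjusted p = 0.00163). Mcm3, a subunit of that helicase, had a difference of -0.42 ± 0.076 (SE, adjusted p = 0.00062) and a direct value of -0.11, not called. Of 64 G2 and mitosis genes, 5 were lower (Ncapg, Psrc1, Smc2, Cdc25b and Cdca2) and 1, Cdc20, higher, a smaller share than over all genes tested. Ncapg, a condensin subunit, had a difference of -0.36 ± 0.071 (SE, adjusted p = 0.00147) and Psrc1, a spindle protein, of -0.34 ± 0.077 (SE, adjusted p = 0.00411).

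Few inhibitors of the cell cycle were tested, and the lower count of p53 targets moved with single libraries. Among 5 tested INK4 and CIP genes, Cdkn1c and Cdkn1a were lower and none higher (1 at an unadjusted p under 0.05, none by DESeq2 or limma). Cdkn1c, p57, had 0.584, 0.79 and 0.346 CPM in siEzh2 and 2.13, 2.75 and 2.62 CPM in scr libraries. It had 0.377, 0.278 and 0.415 CPM in GSK126 and 0.335, 0.349 and 0.385 CPM in DMSO libraries. Apart from the scr libraries all were under 1 CPM, with a difference of -2.11 ± 0.40 (SE, adjusted p = 0.00104) and a direct value of 0.67, not called; 30.7% of its exonic length overlaps another gene on the opposite strand. Cdkn1a, p21, rose with GSK126 by 0.30 ± 0.060 (SE, adjusted p = 0.00248) and had -0.12 with siEzh2 (adjusted p = 0.154), a difference of -0.42 ± 0.084 (SE, adjusted p = 0.00146). Of 32 p53 targets, 7 were lower and 2, Sesn1 and Apaf1, higher, against 10.2% of all genes in each direction. The lower count was 4 without siEzh2 replicate 2, 3 without scr replicate 2 and 4 without GSK126 replicate 3, near the share of all genes. Sulf2, a heparan sulfatase, had a difference of -0.68 ± 0.071 (SE, adjusted p = 2.11e-06), and Apaf1, of the apoptosome, 0.43 ± 0.068 (SE, adjusted p = 0.00019).

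Genes that PRC2 is known to silence in other cells had a negative median difference. Only 42 of 97 listed developmental regulators passed the filter on counts. Of these, 9 were lower and 4 (Pax3, Tbx4, Irx3 and Irx5) higher, against 10.2% of all genes in each direction, with a median of -0.24. The lower count was 5 without siEzh2 replicate 3 or without scr replicate 3, near the share of all genes. With siEzh2 5 were higher and 7 lower, with GSK126 7 were higher and 2 (Irx3 and Pax3) lower, and directly 4 were higher and 12 lower. Dlx6, a homeobox factor of the branchial arches and limbs, had 59.1, 64.1 and 57.0 CPM in siEzh2 and 92.0, 83.6 and 94.9 CPM in scr libraries. It had 103, 100 and 104 CPM in GSK126 and 46.6, 45.5 and 51.4 CPM in DMSO libraries. It fell with siEzh2 and rose with GSK126 without overlap, and the difference was -1.68 ± 0.088 (SE, adjusted p = 5.71e-10). The direct value of Dlx6 was -0.77, beside scr over DMSO of 0.91. Foxc1, a forkhead factor of mesenchyme, had effects of -0.25 with siEzh2 and 0.56 with GSK126, both called, with a difference of -0.81 ± 0.080 (SE, adjusted p = 1.18e-06). Of 14 imprinted genes that passed the filter (of 36 listed), Mest was lower and Impact higher (0.41), a smaller share than over all genes tested. Of 4 germline genes (of 26) none was called by edgeR, DESeq2 or limma in either direction, with 1 lower at an unadjusted p under 0.05.

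Within the Polycomb complexes themselves, 3 of 12 PRC2 genes (Ezh2, Mtf2 and Phf19) were lower and none higher by edgeR and limma. DESeq2 had 1 higher, and edgeR had 2 at an unadjusted p under 0.05. Over all genes tested 10.2% were called in each direction, and Ezh2 is the target of the siRNA. Directly, Ezh2, Mtf2 and Epop were lower, and Ezh1 (0.25, adjusted p = 0.0192) and Phf19 (0.28, adjusted p = 0.00775) higher, Phf19 opposite to its difference of -0.36. Mtf2, which recruits PRC2 to CG-rich DNA, had 34.8, 34.7 and 38.0 CPM in siEzh2 and 48.2, 46.2 and 45.9 CPM in scr libraries. It had 39.8, 41.2 and 40.7 CPM in GSK126 and 41.2, 40.0 and 37.2 CPM in DMSO libraries. The siEzh2 libraries were at the bottom, overlapping DMSO, and the difference was -0.43 ± 0.079 (SE, adjusted p = 0.00078). The core subunits Eed and Suz12, chosen after their values were seen, had differences of 0.035 and -0.18 with adjusted p = 0.815 and 0.0894. Of 22 PRC1 genes, Pcgf3, Cbx8 and Cbx6 were higher and Phc1 lower, so that this list did not stand out from the 10.2% of all genes. Pcgf3 had a difference of 0.51 ± 0.068 (SE, adjusted p = 3.77e-05) and Phc1 of -0.47 ± 0.12 (SE, adjusted p = 0.0124), and in the direct comparison none was higher and 5 lower (Bmi1, Pcgf3, Cbx7, Kdm2b and Yaf2); 1 was higher at an unadjusted p under 0.05 and none by DESeq2 or limma.

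Markers of the dedifferentiated melanoma state were split. Of 12 tested neural crest and dedifferentiation genes, 4 were lower (Ngfr, Axl, Sox11 and Nes) and 3 higher (Sox9, L1cam and Sox4). Directly Sox9 was higher, and Ngfr, Axl, Nes, Sox11 and Sox4 were lower, Sox4 by -0.30 (adjusted p = 0.000432) against a difference of 0.21. Ngfr, the neurotrophin receptor CD271 of neural crest-like melanoma cells, had 0.86, 0.688 and 0.807 CPM in siEzh2 and 1.57, 2.07 and 1.9 CPM in scr libraries. It had 2.31, 3.35 and 2.37 CPM in GSK126 and 1.08, 0.909 and 0.97 CPM in DMSO libraries. It fell with siEzh2 and rose with GSK126 without overlap, at low counts, and the difference was -2.68 ± 0.27 (SE, adjusted p = 1.19e-06). The direct value of Ngfr was -1.78, beside scr over DMSO of 0.90. Axl, a receptor tyrosine kinase of invasive melanoma cells, had 12, 11.2 and 14 CPM in siEzh2 and 31.2, 28.9 and 30.8 CPM in scr libraries. It had 19.4, 20.1 and 17.9 CPM in GSK126 and 17.3, 17.6 and 16.9 CPM in DMSO libraries. The siEzh2 libraries were the lowest and scr the highest, with a difference of -1.43 ± 0.11 (SE, adjusted p = 4.22e-08) and a direct value of -0.62 ± 0.078 (SE, adjusted p = 1.98e-05).

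The mesenchymal and invasion list had 8 of 28 members higher and 6 lower, against 10.2% of all genes in each direction. Directly 5 were higher (Cdh1, Mmp2, Loxl2, Itgb3 and Postn) and 7 lower. Timp3, an inhibitor of matrix metalloproteinases that lies within Syn3 on the opposite strand, fell by 0.28 with siEzh2 and rose by 0.78 with GSK126, a difference of -1.06 ± 0.085 (SE, adjusted p = 1.06e-07). The direct value of Timp3 was -0.48, beside scr over DMSO of 0.58. Spp1, osteopontin, rose in both arms, by 1.64 and 0.69, with a difference of 0.95 ± 0.13 (SE, adjusted p = 4.13e-05) and a direct value of -0.11, not called. Cdh1, E-cadherin, had 4.95, 4.51 and 4.56 CPM in siEzh2 and 2.32, 2.94 and 2.95 CPM in scr libraries, and a difference of 1.07 ± 0.19 (SE, adjusted p = 0.000442). The collagen gene Col1a2 rose with GSK126 by 0.91, and Postn, periostin, rose with siEzh2 by 1.11; their differences were -1.05 ± 0.14 (SE, adjusted p = 4.96e-05) and 0.84 ± 0.12 (SE, adjusted p = 8.56e-05). Of the 5 fibroblast markers tested, Col1a1, Pdgfra and Postn were higher and Col1a2 lower in the difference. Directly, Col1a2 was higher (0.56, adjusted p = 0.000709) and Pdgfra lower (-0.76, adjusted p = 4.33e-05), each opposite to its difference, beside scr over DMSO of 1.60 and -1.64. Of 8 keratinocyte and epithelial markers, Cdh1 alone passed the filter on counts. Of 2 tested blood and endothelial markers, Fcer1g was higher, by 0.76 ± 0.24 (SE, adjusted p = 0.0347), a call lost by limma and without siEzh2 replicate 1, scr replicate 2 or 3, GSK126 replicate 1 or 2, or DMSO replicate 3, and Lyz2 had -0.16 (adjusted p = 0.849).

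Genes that changed alike in both arms were also present. Of the 360 genes called in the same direction, 62 were still called in the difference, and for 272 the whole 95% interval of the difference lay within 1.5-fold; without GSK126 replicate 2 these counts were 38 and 168, and without GSK126 replicate 3 they were 38 and 167. Ano3, of the anoctamin family of membrane proteins, had 93.4, 89.0 and 95.4 CPM in siEzh2 and 32.4, 33.3 and 29.9 CPM in scr libraries. It had 110, 108 and 114 CPM in GSK126 and 56.0, 56.3 and 47.4 CPM in DMSO libraries. It rose in both arms without overlap, by 1.54 and 1.06, and the effect of siEzh2 was the larger by 0.48 ± 0.091 (SE, adjusted p = 0.000996), while its direct value was -0.26 (adjusted p = 0.00771). Sgk1, a kinase of ion transport, rose by 0.98 with siEzh2 and 1.36 with GSK126, a difference of -0.38 ± 0.10 (SE, adjusted p = 0.0112). Dpysl3, a cytoskeletal protein of growth cones, rose by 0.49 and 0.55, and its difference was -0.064 ± 0.071 (SE, adjusted p = 0.588) with an interval of -0.21 to 0.085; directly it was lower, at -0.35 (adjusted p = 7.2e-05). Mmp15, a membrane-bound metalloproteinase, had 4.76, 5.12 and 4.52 CPM in siEzh2 and 12.7, 13.4 and 12.1 CPM in scr libraries. It had 4.98, 5.48 and 5.85 CPM in GSK126 and 10.1, 9.55 and 9.2 CPM in DMSO libraries. Both treated groups lay near 5 CPM and below their controls, with a difference of -0.59 ± 0.12 (SE, adjusted p = 0.00208). Hsf4, a heat shock factor of the lens, and Col16a1, a collagen, also fell in both arms, with differences of -0.43 and -0.71, both called. Their direct values were 0.56 (adjusted p = 6.04e-05), opposite in sign, and 0.038 (not called), beside scr over DMSO of 0.99 and 0.75.

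Genes chosen by size in one arm were then read in the other. The 128 genes raised at least 2-fold by GSK126 (0.857% of those tested) had a median siEzh2 effect of 0.043, against -0.002 over all genes tested; 22 (17.2%) were called higher and 17 (13.3%) lower, against 14% and 12.1% of all genes. The 143 genes raised at least 2-fold by siEzh2 (0.958%) had a median GSK126 effect of 0.031, with 24 (16.8%) higher and 19 (13.3%) lower, against 7.22% and 4.84% of all genes. The 172 genes lowered at least 2-fold by siEzh2 (1.15%) had a median GSK126 effect of 0.11, with 21 (12.2%) higher and 7 (4.07%) lower. The 10 genes lowered at least 2-fold by GSK126 (0.067%) had a median siEzh2 effect of 0.60, with 4 higher (Sgk2, Dhrs3, Lamc3 and a gene without a symbol) and 1 (Tle2) lower. Without GSK126 replicate 1 these were 6 genes, with 2 higher; the number was also 6 without GSK126 replicate 2 or DMSO replicate 3, and 21 without DMSO replicate 1. Of them, 2 were lower with siEzh2 without GSK126 replicate 3, DMSO replicate 1 or DMSO replicate 2. With genes of a mean of at least 1 CPM only, 51 genes were raised at least 2-fold by GSK126, 13 of them called higher with siEzh2, and 74 were raised and 86 lowered at least 2-fold by siEzh2. These counts moved with single libraries: of the genes raised by siEzh2, 11 were lower with GSK126 without GSK126 replicate 1 or replicate 3, and of those lowered by siEzh2, 13 were higher without GSK126 replicate 3 and 3 or 4 were lower without any 1 GSK126 replicate or DMSO replicate 3. The promoters of the genes raised at least 2-fold held a median of 12 CG dinucleotides in 300 bases for GSK126 (96 with a promoter) and 8 for siEzh2 (94 with a promoter). For genes called in the difference the medians were 20 for the 1146 higher and 21 for the 1162 lower, against 21 over all tested genes with a promoter.

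Housekeeping groups gave few calls. Of 47 ribosomal protein genes, 1, Rps4x, was called higher, with a difference of 0.26 ± 0.076 (SE, adjusted p = 0.0227) that was not called with library totals alone (adjusted p = 0.0632) and without siEzh2 replicate 1, GSK126 replicate 2, GSK126 replicate 3 or DMSO replicate 2. Rpl7 had a difference of 0.27 ± 0.11 (SE, adjusted p = 0.0941). None of the 13 mitochondrially encoded genes was called in either direction by edgeR, DESeq2 or limma, nor at an unadjusted p under 0.05, with a median difference of -0.25 that ranged from -0.40 without scr replicate 1 to -0.10 without scr replicate 2.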

How the data were processed

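Per the labels, total RNA of B16-F10 cells was sequenced. The authors deposited raw gene counts; per the submitters' processing notes GRCm38, STAR and featureCounts were used, with versions, strand setting and annotation release not given in the sources used here. Counts were fitted in edgeR 4.0.16 (R 4.3.3): filterByExpr, TMM, 1 term per group over 12 libraries, robust quasi-likelihood test, Benjamini-Hochberg adjustment over 14928 genes, threshold 0.05. All comparisons come from this fit. The SE is the log2 value divided by the square root of F. CPM use TMM sizes; 1 count is worth 0.0154 to 0.0307 CPM. DESeq2 1.42.0, limma 3.58.1 (voom) and other settings served as alternatives. Genes were located in GENCODE M21; 849 identifiers had no entry and 0.0603% of counts. Promoters are RefSeq's, 1 per gene. On data simulated for the difference over 14772 genes, 36 of 50 genes changed 2-fold and 7 of 14728 unchanged genes were called.

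The 26 lists and all members were chosen with earlier results of these data known. Named were Ezh2, Ezh1, the 10 largest called differences each way (mean of at least 2 CPM, no overlap in the larger arm, no predicted genes), 6 genes of opposite and 3 and 3 of shared direction with the smallest p, and the 2 members of each list with the smallest p. Some genes so chosen are not reported here. Sequence motifs were added after values were seen. Replicate numbers gave no sign of pairing between libraries and were not used as pairs. Replicates differed by more than sampling noise (chi-square per degree of freedom 5.62 to 36.2).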

Additional observations from a re-analysis of the deposited data

How the results depend on the processing

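The count of genes called in the difference was 3051 and ranged from 2899 to 3318 over 9 alternatives of scaling, filter, test and samples in the fit, and from 2461 (without GSK126 replicate 3) to 3326 (without DMSO replicate 3) when 1 library was left out. The difference of no named gene reversed, but the balance of higher and lower calls turned in some comparisons. With library totals, siEzh2 against scr had 1617 higher and 2229 lower, against 2093 and 1813 in the main fit. In that setting scr against DMSO had 2197 higher and 1549 lower, against 1818 and 2035. Of the 69 named genes, Rps4x, Rpl7 and Fcer1g changed side of the threshold under some alternative. The others kept theirs wherever they were tested (67 with a mean of at least 1 CPM). Without a count filter 1291 genes were lower and 1183 higher with GSK126, against 722 and 1078 in the main fit. In that setting, 11 of the genes lowered at least 2-fold by siEzh2 were lower with GSK126. With a mean of at least 1 CPM, at least 2-fold genes numbered 51 for GSK126 higher (13 of them higher with siEzh2), and 74 higher and 86 lower for siEzh2. Genes lowered at least 2-fold by GSK126 numbered 29 without a filter (3 lower with siEzh2), 3 with a mean of at least 1 CPM (2 higher) and 19 with all 15 libraries (8 higher, 2 lower).

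With 1 library left out, GSK126 calls ranged from 1087 to 2428 (higher 708 to 1291, lower 372 to 1137), and direct higher calls from 892 to 1895. Genes of the same direction in both arms ranged from 237 to 485, with 38 to 75 called in the difference and 167 to 373 within 1.5-fold. Opposite genes ranged from 262 to 496 (siEzh2 higher 138 to 261, siEzh2 lower 124 to 235), and genes called in the GSK126 arm alone and in the difference from 359 to 752. Of genes raised at least 2-fold by siEzh2, 11 to 20 were lower with GSK126; of those lowered, 13 to 23 were higher and 3 to 8 lower; 6 to 21 genes were lowered at least 2-fold by GSK126, 2 to 6 of them higher and 1 to 2 lower with siEzh2. The cause of these shifts was not tested.

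Same-numbered libraries of different groups correlated between -0.299 and 0.221 in their deviations from the group means. Differently numbered ones correlated between -0.392 and 0.411. The numbers thus gave no sign of pairing, though so few libraries cannot settle whether any were paired. With the replicate number as a block 2899 genes were called in the difference and 377 had opposite directions.

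Library totals in place of TMM moved the median difference by -0.04 and the split of calls in the difference to 1180 higher and 1843 lower. With 3 libraries a group, 28 of 50 simulated 1.5-fold differences were called, so smaller differences can be missed. The simulation changed far fewer genes than were called in the data, and in the siEzh2 group only. The share called there is therefore not the share that would be found in this contrast.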
